A study of Mus musculus with 18 samples.

Results

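The genes of glycogen synthesis and breakdown were followed in mouse oligodendrocyte progenitor cells (OPCs) in which CRISPR had been used to edit Vhl, and in CRISPR control cells. The 8 genes are Ugp2, Gyg, Gys1, Gbe1, Ppp1r3c, Pygb, Pygl and Phka1. They were taken by name from 54279 rows, and all 8 have a row in both deposited tables. Vhl encodes the subunit of a ubiquitin ligase through which cells with enough oxygen destroy hypoxia-inducible factor (HIF). The OPCs were made from mouse epiblast stem cells and were grown in DMEM/F12 medium with N2max, B27, Fgf2 and Pdgfa. The first experiment compared untreated control cells with untreated Vhl cells. The second gave control and Vhl cells either DMSO, the solvent, or 300 nM of AZD8330, an inhibitor of the kinase MEK, for 14 hours. The 4 groups of the second experiment are thus control with DMSO, Vhl with DMSO, control with AZD8330 and Vhl with AZD8330. Each of the 6 groups has 3 RNA-seq libraries (A, B and C), 18 in all. The sources used here do not give whether the edited cells were a clone or a pool, nor whether a group's libraries were grown as separate cultures. The p-values therefore measure only the spread between these libraries, which may be technical.

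Glycogen is a branched polymer of glucose that cells build in times of supply and break down on demand. Ugp2 makes UDP-glucose, the glucose donor. Gyg, glycogenin, primes the chain, Gys1, the glycogen synthase of muscle and most other tissues, lengthens it, and Gbe1 adds the branches. Ppp1r3c brings protein phosphatase 1 to glycogen, where the phosphatase activates the synthase and inactivates phosphorylase. Pygb and Pygl are the brain and liver forms of glycogen phosphorylase, which releases glucose 1-phosphate, and Phka1 is a regulatory subunit of the kinase that activates phosphorylase. In the brain, glycogen is known mainly from astrocytes. Several glycogen genes are known as HIF targets in other cell types.

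The bases upstream of 4 of these genes are shown because the results turn on them: 3 that rose in Vhl cells (Gbe1, Gys1 and Ppp1r3c) and Pygb, which rose with AZD8330. The sequences are from RefSeq on GRCm38.p6, run 5′ to 3′ in the direction of the gene, and end before the start of the gene in both RefSeq and GENCODE M21. Capitals mark ACGTG or GCGTG on either strand, the core letters of the HIF binding motif, so that a match on the other strand reads CACGT or CACGC. The Gbe1 window is chr16:70313699-70313948 on the plus strand, the Gys1 window chr7:45434589-45434838 on the plus strand, the Ppp1r3c window chr19:36736654-36736854 on the minus strand and the Pygb window chr2:150786546-150786734 on the plus strand.
Gbe1: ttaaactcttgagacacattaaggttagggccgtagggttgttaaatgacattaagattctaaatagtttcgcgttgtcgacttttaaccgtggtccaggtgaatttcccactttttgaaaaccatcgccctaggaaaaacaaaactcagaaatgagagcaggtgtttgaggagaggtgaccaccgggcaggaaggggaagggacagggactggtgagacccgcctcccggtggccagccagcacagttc
Gys1: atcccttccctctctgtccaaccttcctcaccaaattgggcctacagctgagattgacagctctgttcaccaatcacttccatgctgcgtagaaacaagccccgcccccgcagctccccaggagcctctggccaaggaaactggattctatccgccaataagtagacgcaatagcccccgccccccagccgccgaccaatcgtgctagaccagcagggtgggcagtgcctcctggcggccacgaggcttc
Ppp1r3c: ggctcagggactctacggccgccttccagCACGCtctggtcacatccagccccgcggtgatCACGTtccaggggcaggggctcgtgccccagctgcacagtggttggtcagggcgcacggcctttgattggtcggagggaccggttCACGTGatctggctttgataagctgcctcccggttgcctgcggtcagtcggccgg
Pygb: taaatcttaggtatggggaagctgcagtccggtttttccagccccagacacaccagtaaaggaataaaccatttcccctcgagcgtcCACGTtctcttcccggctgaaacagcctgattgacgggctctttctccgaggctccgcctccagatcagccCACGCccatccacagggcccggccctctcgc

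Over the 250 bases before each of 32851 mouse RefSeq starts, 38.6% held at least 1 match and 16.7% held matches in 2 or more places. The 2 strands of a single CACGTG count here as 2 places. The windows of Gbe1 and Gys1 held none. The window of Ppp1r3c held 4, of which 2 are the strands of a single CACGTG, a sequence found in 6.02% of the windows, and that of Pygb held 2. Among the members not shown, the Gyg window held 1 match, those of Pygl and Phka1 held 2 each, and the 2 RefSeq starts of Ugp2 held 6 and 0. A match describes the letters of the window and is no evidence of binding, and a window without a match says nothing of sites elsewhere.

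The deposited values are estimated counts, which sum to between 14594148 and 21160250 in the untreated libraries and between 12391077 and 16349676 in the drug experiment. Levels are given in CPM, which sets each count against its library's scaled total, and each table was scaled on its own. Changes are log2 changes with their standard error (SE) from the quasi-likelihood test of edgeR, and p-values are adjusted over all genes tested in a comparison. A gene is said to rise or fall only with an adjusted p under 0.05. Vhl itself was between 116.9 and 125.4 CPM in untreated control libraries and between 74.1 and 90.2 in Vhl libraries, and it was also lower in all Vhl libraries with DMSO and with AZD8330. All 6 OPC markers were above 1 CPM in every group. Of 6 markers of pluripotent cells, the OCT4 gene Pou5f1 was at 0 in all libraries, but each group had 2 above 1 CPM. Among these, Esrrb reached a mean of 19.0 CPM in the DMSO controls, and Vhl cells with DMSO had a mean of 16.0 CPM. Untreated libraries A stood apart within their groups. Sox10, an OPC marker, was at 526.9 CPM in control A against 88.1 and 87.8 in control B and C, and Vegfa, a HIF target, was at 38.8 CPM in Vhl A against 408.4 and 644.0 in Vhl B and C. Untreated results are therefore given with all libraries and without the A libraries. The estimated common dispersion was 0.144 for untreated libraries against 0.0161 in the drug experiment, so that equal changes are harder to detect in untreated cells.

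Gbe1, the branching enzyme, rose 7.31-fold in Vhl cells with DMSO and 12.3-fold with AZD8330, and Ppp1r3c rose 1.84-fold and 1.72-fold. Ugp2 and Gyg, which supply and prime the chain, fell to between 0.728 and 0.868 of the control level in Vhl cells in both conditions. AZD8330 raised Pygb and Ppp1r3c in both genotypes and raised Gbe1 in Vhl cells. Gys1 was scarce in the drug experiment and rose there in Vhl cells, though its call with AZD8330 was lost without some single libraries. Pygl was near 0. In bulk RNA, a change in the share of cells of a type and a change in RNA per cell cannot be told apart.

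**Figure D1:**
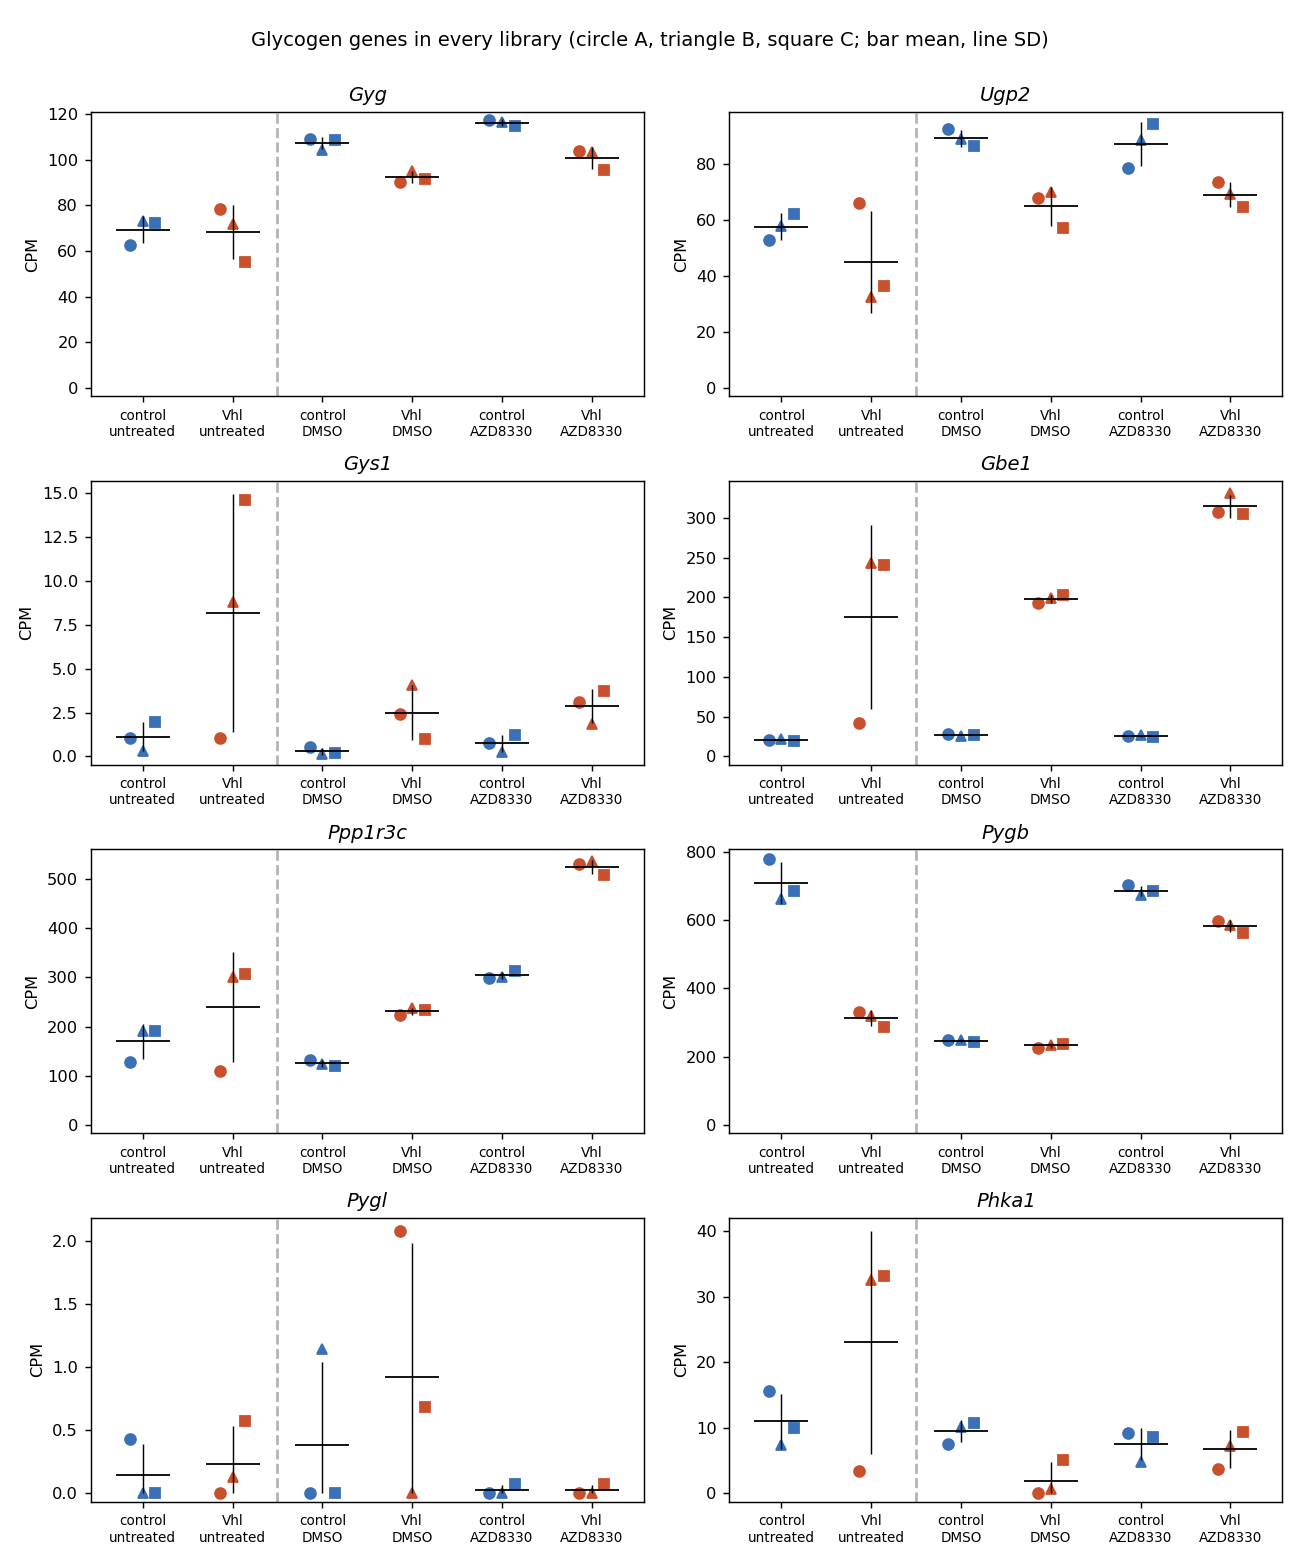
Level of each of the 8 glycogen genes in CPM (y axis, linear, a scale of its own per gene) in the 18 libraries, by group (x axis). Points are libraries (circle A, triangle B, square C, blue for control and red for Vhl cells), the dashed line parts the 2 experiments, horizontal bars are means and vertical lines are 1 SD over 3 libraries, ended at 0 where they would pass below it. In the drug experiment, Gbe1 lies between 24.5 and 27.8 CPM in control libraries and between 192.4 and 331.2 CPM in Vhl libraries, and in untreated Vhl cells library A lies near the controls.

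With DMSO, 3 of the 7 members tested rose in Vhl cells (Gbe1, Gys1 and Ppp1r3c), 3 fell (Gyg, Ugp2 and Phka1), and Pygb did not pass. Over all 13460 genes tested in this comparison, 13.8% rose and 18.5% fell, 32.3% in either direction (1851 and 2492 genes, or 2347 and 1788 with scaling by total counts). With AZD8330, 3 members again rose (the same 3 genes) and 3 fell (Gyg, Ugp2 and Pygb), against 16% and 14% of all genes, 30% in either direction. The median log2 change of the 7 members was -0.08 with DMSO and -0.15 with AZD8330, beside -0.03 and 0.01 over all genes, since rises and falls offset each other within the list. In the untreated cells, none of 7 members passed with edgeR, and the test called 2 genes (0.0147%) among 13569. An unadjusted p under 0.05 was found for 3 members and for 1267 of all genes.

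AZD8330 raised 3 of 7 members in control cells (Ppp1r3c, Pygb and Gyg) and lowered none, where 29.1% of all genes rose and 31.7% fell, 60.8% in either direction. In Vhl cells, AZD8330 raised 4 (the same 3 and Gbe1) and lowered none, where 25.8% of all genes rose and 25.6% fell, 51.4% in either direction. The median log2 change of the members was 0.12 in control and 0.67 in Vhl cells, against -0.01 and 0.03 over all genes. The effect of the Vhl edit differed between AZD8330 and DMSO for 2 members, upward for Gbe1 and downward for Pygb, against 12.8% of all genes, 7.81% upward and 4.96% downward. That balance over all genes was not stable. The 1051 upward and 667 downward calls became 681 and 873 with scaling by total counts. With AZD8330 control library B left out they became 465 and 781, and without C 477 and 769. Without AZD8330 Vhl library A they became 484 and 920, without B 466 and 772, and without C 579 and 852. The comparisons of the drug experiment share groups, so their values are not independent of each other. Groups without any overlap between libraries were found for all 7 tested members with DMSO (44.8% of all genes) and for 6 with AZD8330 (43% of all genes) in Vhl against control cells. They were found for 3 members in control cells (66.4% of all genes) and 4 in Vhl cells (58.4% of all genes) for AZD8330 against DMSO, and for Gbe1 and Pygb in untreated cells (15.8% of all genes).

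**Figure D2:**
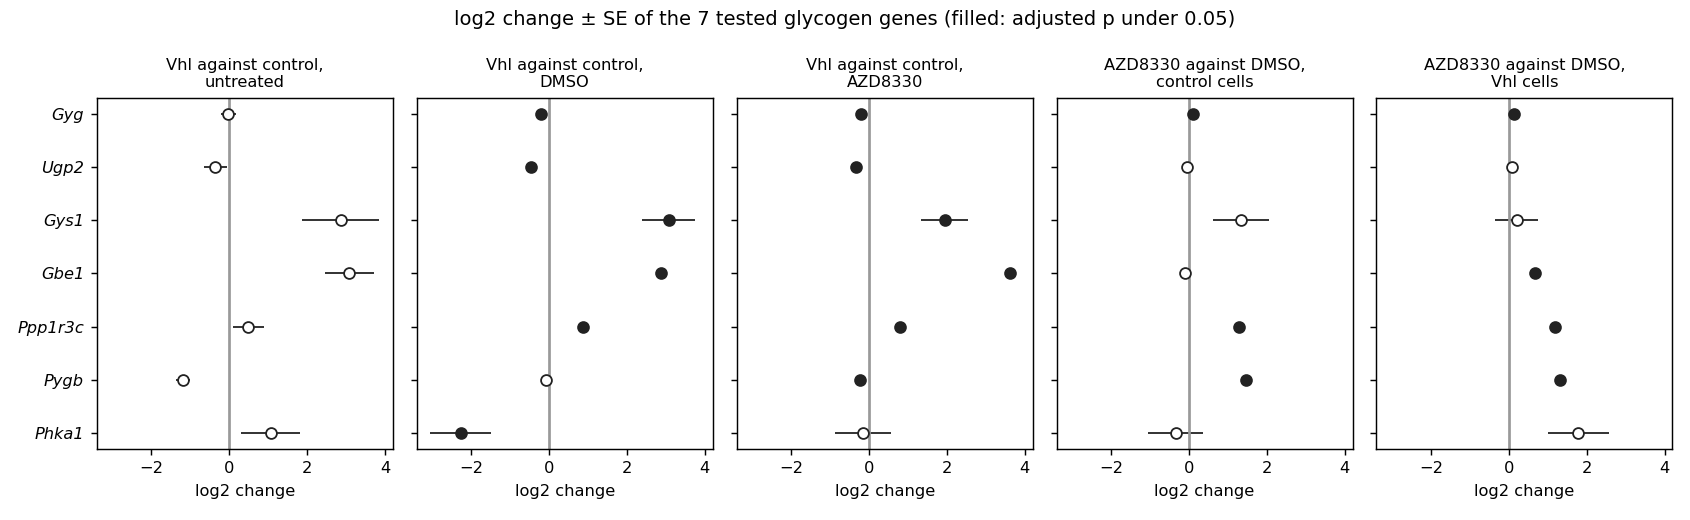
Log2 change (x axis) of each of the 7 tested members (y axis), with 1 panel for each comparison between 2 groups and bars for the SE. Filled points passed at an adjusted p under 0.05. Gbe1 lies at 2.87 with DMSO and 3.62 with AZD8330 for Vhl against control, while Gyg and Ugp2 lie between -0.46 and -0.20 in those comparisons.

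Ugp2 and Gyg stand at the start of the pathway. Ugp2 (GRCm38 chr11:21321138-21371201, minus strand) was at 92.5, 88.8 and 86.2 CPM in control libraries A to C with DMSO and at 67.8, 69.8 and 56.9 CPM in Vhl libraries. With AZD8330, it was at 78.6, 88.6 and 94.2 CPM in control and at 73.5, 69.2 and 64.4 CPM in Vhl libraries. In both conditions every Vhl library was below every control library. Ugp2 fell by 0.46 ± 0.08 (SE) on the log2 scale with DMSO (edgeR, adjusted p = 0.00103) and by 0.33 ± 0.08 with AZD8330 (adjusted p = 0.0082). AZD8330 itself gave no change that passed, with 95% intervals from -0.22 to 0.15 in control cells and from -0.10 to 0.28 in Vhl cells. In untreated cells, Ugp2 was at 52.6, 57.9 and 62.2 CPM in control and at 66.0, 32.5 and 36.4 CPM in Vhl libraries. Vhl A, the library that stood apart, was above all the controls there and Vhl B and C were below them (-0.36 ± 0.29, edgeR adjusted p = 0.773). The Ugp2 difference was -0.74 without Vhl A (edgeR, adjusted p = 0.0631) and -0.81 without both A libraries (adjusted p = 0.0547). No Ugp2 value was a whole number, and 1.57% of its 31-base stretches also occur in another gene, the antisense transcript Gm12043. The sources used here do not give whether the counting used strand.

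Gyg (chr3:20122084-20155317, minus strand) was among the more even members. It was at 109.3, 104.4 and 108.4 CPM in control libraries with DMSO and at 90.4, 95.2 and 91.7 CPM in Vhl libraries. With AZD8330, it was at 117.4, 116.7 and 114.7 CPM in control and at 103.8, 103.5 and 95.4 CPM in Vhl libraries. The groups did not overlap in either condition. Gyg fell in Vhl cells by 0.22 ± 0.04 on the log2 scale with DMSO (edgeR, adjusted p = 0.00162) and by 0.20 ± 0.04 with AZD8330 (adjusted p = 0.00221). AZD8330 raised Gyg by 0.12 ± 0.04 in control cells (edgeR, adjusted p = 0.028) and by 0.13 ± 0.04 in Vhl cells (adjusted p = 0.0233). The 2 small rises were not stable. Of 13 alternatives, 3 lost the call in control cells and 7 lost it in Vhl cells, some by leaving out a single library. In control cells the call was lost without DMSO library B (edgeR, adjusted p = 0.113) or AZD8330 library A (adjusted p = 0.0687). In Vhl cells it was lost without DMSO library A (edgeR, adjusted p = 0.0803) or C (adjusted p = 0.0628), or AZD8330 library A (adjusted p = 0.424) or B (adjusted p = 0.373). In untreated cells Gyg was at 62.7, 72.9 and 72.4 CPM in control and at 78.3, 71.6 and 55.2 CPM in Vhl libraries, which overlap (log2 change -0.02, 95% interval -0.54 to 0.50). Without both A libraries the Gyg difference was -0.20 (edgeR, adjusted p = 0.479).

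Gys1 and Gbe1 lengthen and branch the chain. Gys1 (chr7:45434844-45456619, plus strand) had few counts. In control libraries A to C with DMSO it was at 0.509, 0.134 and 0.215 CPM, from estimated counts of 7.651, 2.006 and 3.321. In Vhl libraries with DMSO it was at 2.40, 4.10 and 0.983 CPM. With AZD8330, it was at 0.762, 0.262 and 1.22 CPM in control and at 3.11, 1.84 and 3.72 CPM in Vhl libraries. The Vhl libraries were above the control libraries in both conditions. Gys1 rose by 3.07 ± 0.68 on the log2 scale with DMSO (edgeR, adjusted p = 0.00388) and by 1.94 ± 0.61 with AZD8330 (adjusted p = 0.0287). Without control library A the rise with DMSO was 3.78 (edgeR, adjusted p = 0.00585), and with limma on log2(CPM + 1), where the pseudocount shrinks changes of scarce genes, it was 1.35 (adjusted p = 0.00694). The call with AZD8330 was lost without control library A (edgeR, adjusted p = 0.0738) or B (adjusted p = 0.104), or Vhl library A (adjusted p = 0.0679) or C (adjusted p = 0.0928).

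In untreated cells Gys1 was at 1.08, 0.332 and 1.96 CPM in control and at 1.07, 8.83 and 14.6 CPM in Vhl libraries. Only Vhl A lay within the range of the controls, and the difference did not pass (2.86 ± 0.99, edgeR adjusted p = 0.434). It was 3.39 without Vhl A (edgeR, adjusted p = 0.0566) and 3.37 without both A libraries (adjusted p = 0.103). Gys1 overlaps Ruvbl2 on the opposite strand, and 7.11% of its 31-base stretches also occur in another gene. None of its 18 values was a whole number, as when reads are divided between transcripts. Mean Ruvbl2 CPM in control and Vhl cells was 14.3 and 29.9 untreated, 39.9 and 44.4 with DMSO, and 15.0 and 27.3 with AZD8330. The Ruvbl2 mean was thus higher in Vhl cells in all 3 conditions. With DMSO, however, its libraries overlapped, at 37.6 to 44.3 CPM in control and 42.0 to 47.0 CPM in Vhl cells. The part of Ruvbl2 in the Gys1 values was not tested.

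Gbe1 (chr16:70313949-70569716, plus strand), whose upstream window is printed above without a match, was at 27.8, 26.2 and 27.3 CPM in control libraries with DMSO and at 192.4, 199.3 and 202.5 CPM in Vhl libraries. With AZD8330, it was at 25.2, 26.9 and 24.5 CPM in control and at 308.0, 331.2 and 305.1 CPM in Vhl libraries. The 3 Vhl libraries with AZD8330 were above those with DMSO, while the 2 sets of control libraries overlapped. Gbe1 rose in Vhl cells by 2.87 ± 0.05 on the log2 scale with DMSO, a 7.31-fold rise (edgeR, adjusted p = 2.75e-13), and by 3.62 ± 0.05 with AZD8330, a 12.3-fold rise (adjusted p = 2.66e-14). AZD8330 raised it by 0.67 ± 0.04 in Vhl cells (edgeR, adjusted p = 2.45e-08), whereas the change in control cells was -0.09 ± 0.06 (adjusted p = 0.206). The difference between the 2 Vhl effects was 0.75 ± 0.07 (edgeR, adjusted p = 2.51e-05).

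In untreated cells Gbe1 was at 21.1, 21.2 and 19.6 CPM in control and at 41.9, 243.8 and 240.4 CPM in Vhl libraries. All Vhl libraries were above the controls, library A by far the least. With all 6 libraries the log2 difference was 3.09 ± 0.62 (edgeR, adjusted p = 0.186). Without Vhl A, Gbe1 rose by 3.55 (edgeR, adjusted p = 0.000504), and without both A libraries by 3.57 (adjusted p = 0.00667). Vegfa, the HIF target, had a like spread over the same Vhl libraries, as given above. DESeq2 called Gbe1 with all libraries (adjusted p = 1.06e-05).

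Ppp1r3c (chr19:36731731-36736653, minus strand), the phosphatase subunit whose window is printed above with 4 matches, responded to both the edit and the inhibitor. It was at 132.4, 124.3 and 119.1 CPM in control libraries with DMSO and at 222.9, 236.9 and 233.8 CPM in Vhl libraries. With AZD8330, it was at 299.0, 301.2 and 312.3 CPM in control and at 529.3, 535.7 and 508.6 CPM in Vhl libraries. None of the 4 groups overlapped. Ppp1r3c rose in Vhl cells by 0.88 ± 0.04 on the log2 scale with DMSO (edgeR, adjusted p = 1.14e-08) and by 0.79 ± 0.04 with AZD8330 (adjusted p = 1.35e-08). AZD8330 raised it by 1.28 ± 0.04 in control cells (edgeR, adjusted p = 3.62e-11) and by 1.18 ± 0.04 in Vhl cells (adjusted p = 9.07e-11). The difference between the 2 Vhl effects did not pass (-0.10, 95% interval -0.23 to 0.04, edgeR adjusted p = 0.33). On the log scale the 2 changes therefore added up within that interval, from 125.3 ± 6.72 CPM (SD, n = 3) in control cells with DMSO to 524.5 ± 14.1 CPM (SD, n = 3) in Vhl cells with AZD8330. In untreated cells Ppp1r3c was at 128.5, 190.6 and 190.7 CPM in control and at 109.7, 301.3 and 306.2 CPM in Vhl libraries. Library A was the lowest of both groups, and the difference did not pass (0.49 ± 0.40, edgeR adjusted p = 0.771). Without both A libraries Ppp1r3c rose by 0.67 (edgeR, adjusted p = 0.0418).

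Among the genes of breakdown, Pygb (chr2:150786735-150831758, plus strand) was the phosphorylase with substantial counts. It was at 248.1, 249.97 and 242.4 CPM in control libraries with DMSO and at 702.2, 672.4 and 684.6 CPM in control libraries with AZD8330. In Vhl libraries it was at 226.0, 235.0 and 238.4 CPM with DMSO and at 597.5, 586.5 and 563.7 CPM with AZD8330. AZD8330 thus separated the groups widely in both genotypes. Pygb rose with AZD8330 by 1.48 ± 0.03 on the log2 scale in control cells, a 2.78-fold rise (edgeR, adjusted p = 1.5e-12), and by 1.32 ± 0.03 in Vhl cells, a 2.50-fold rise (adjusted p = 5.71e-12). In Vhl against control cells Pygb fell by 0.24 ± 0.03 with AZD8330 (edgeR, adjusted p = 9.22e-05), while the change with DMSO was -0.08 ± 0.03 and did not pass (adjusted p = 0.0769).

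The difference between the 2 Vhl effects on Pygb was -0.15 ± 0.05 (edgeR, adjusted p = 0.0452). This call was lost without DMSO control library A (edgeR, adjusted p = 0.0798), B (adjusted p = 0.0684) or C (adjusted p = 0.0921), without AZD8330 control library A (adjusted p = 0.103), and without DMSO Vhl library B (adjusted p = 0.0975) or C (adjusted p = 0.104). In untreated cells Pygb was at 779.8, 662.3 and 686.7 CPM in control and at 330.7, 320.1 and 286.7 CPM in Vhl libraries. All Vhl libraries were below all controls, library A included, and the log2 difference was -1.18 ± 0.17 (edgeR, adjusted p = 0.0945). Without Vhl A the adjusted p for Pygb was 0.0159 with edgeR, without both A libraries it was 0.0243, and with DESeq2 on all libraries it was 2.06e-08.

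The Pygb level in untreated control cells, 709.6 ± 62.0 CPM (SD, n = 3), was nearer to that of control cells with AZD8330, 686.4 ± 15.0 CPM (SD, n = 3), than to that with DMSO, 246.8 ± 3.92 CPM (SD, n = 3). The tables were scaled separately, so this order was not tested. Dusp6, a target of the MEK pathway, had means of 53.2 CPM in untreated control cells, 416 CPM with DMSO and 20.9 CPM with AZD8330, and 145.7 CPM in untreated Vhl cells. The untreated control cells were thus low in Dusp6 and high in Pygb beside the DMSO controls, and the part of the MEK pathway in this was not tested.

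Pygl (chr12:70190811-70231488, minus strand), the liver phosphorylase, had a mean under 1 CPM in both tables and was not tested. Its estimated counts were 5.665, 0 and 0 in untreated control libraries and 0, 1.583 and 9.346 in untreated Vhl libraries. With DMSO they were 0, 17 and 0 in control and 26, 0 and 8.541 in Vhl libraries, and with AZD8330 they were 0, 0 and 1 in each genotype. The counts came from 1 or a few libraries of each group, so no difference is drawn from them. Without the filter on low counts, edgeR called Pygl lower with AZD8330 than with DMSO in control cells (adjusted p = 0.0424) and in Vhl cells (adjusted p = 0.00417), on these few counts.

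Phka1 (chrX:102513975-102644246, minus strand), the kinase subunit, varied widely between libraries of some groups. With DMSO it was at 7.57, 10.1 and 10.8 CPM in control and at 0, 0.751 and 5.14 CPM in Vhl libraries. With AZD8330, it was at 9.15, 4.77 and 8.63 CPM in control and at 3.73, 7.28 and 9.34 CPM in Vhl libraries, which overlap. Phka1 fell in Vhl cells with DMSO by 2.27 ± 0.78 on the log2 scale (edgeR, adjusted p = 0.0419), and the change with AZD8330 was -0.15 ± 0.71 (adjusted p = 0.911). The fall with DMSO was lost without control library A (edgeR, adjusted p = 0.0611), B (adjusted p = 0.0841) or C (adjusted p = 0.0876), and without Vhl library A (adjusted p = 0.0572) or B (adjusted p = 0.128). Without Vhl library C, the highest, it was -4.55 (edgeR, adjusted p = 0.000628). The fall with DMSO was also lost with DESeq2 (adjusted p = 0.0893), and in all under 8 of 13 alternatives. In untreated cells Phka1 was at 15.6, 7.41 and 10.05 CPM in control and at 3.43, 32.5 and 33.1 CPM in Vhl libraries. The untreated difference was in the other direction, 1.06 ± 0.75 (edgeR, adjusted p = 0.732), with Vhl A below all controls and Vhl B and C above them. Without both A libraries Phka1 rose by 1.91 (edgeR, adjusted p = 0.0285). None of the 17 Phka1 values above 0 was whole, although none of its 31-base stretches occurs in another gene.

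Divided by the length of the longest coding transcript, mean CPM per kilobase allows the members to be ordered within a group. In control cells with DMSO the order was Pygb at 63.2, Gyg at 55.9, Ppp1r3c at 46.0, Ugp2 at 33.2, Gbe1 at 8.20, Phka1 at 1.55 and Gys1 at 0.0777 CPM per kilobase. In Vhl cells with DMSO, Ppp1r3c led at 84.8 CPM per kilobase. Gbe1 at 60.0 ± 1.57 and Pygb at 59.6 ± 1.64 CPM per kilobase (SD, n = 3) came next and did not differ beyond their spread, and Gyg at 48.1 and Ugp2 at 24.2 followed. Gbe1 was below Ugp2 in control cells and above it in Vhl cells. In control cells with AZD8330, Pygb was at 175.6 and Ppp1r3c at 111.6 CPM per kilobase, and in Vhl cells with AZD8330 Ppp1r3c was at 192.5, Pygb at 149 and Gbe1 at 95.3. In untreated control cells Pygb at 181.5 ± 15.9 CPM per kilobase (SD, n = 3) was above Ppp1r3c at 62.4 ± 13.2. In untreated Vhl cells Ppp1r3c at 87.7 ± 41.1, Pygb at 79.9 ± 5.87 and Gbe1 at 53.1 ± 35.0 CPM per kilobase did not differ beyond their spread. Gys1, Pygl and Phka1 were the lowest in every group.

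**Figure D3:**
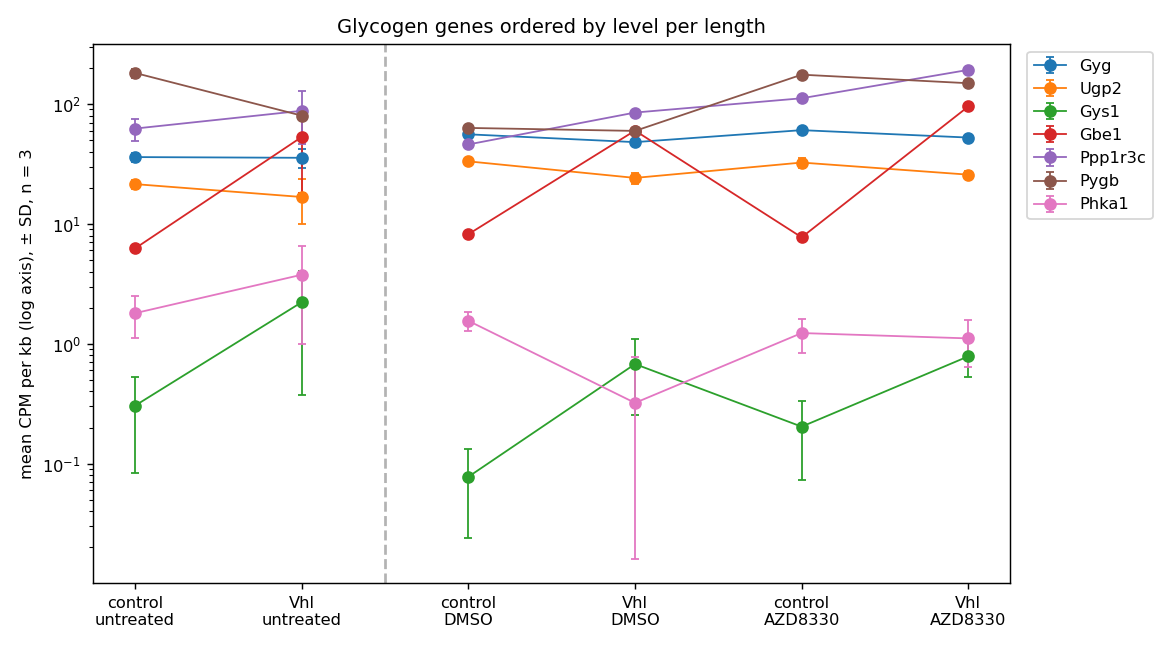
Mean level per kilobase of the longest coding transcript (y axis, CPM per kilobase, log scale) of the 7 tested members in the 6 groups (x axis). Lines join the means of a gene, and the dashed line parts the 2 experiments, which were scaled separately. Bars on the points are 1 SD over 3 libraries, and the lower bar is shortened to stay above 0 where the SD exceeds the mean, as for Phka1 in Vhl cells with DMSO. Gbe1 goes from 8.20 in control to 60.0 in Vhl cells with DMSO, next to Pygb at 59.6.

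A wider list of 25 other glycogen genes, chosen by role but with earlier results of these data known, had 18 genes tested in the drug experiment. In Vhl cells with DMSO, 3 of the 18 rose and 1 fell, where 13.8% of all genes rose and 18.5% fell. Epm2a, which encodes laforin, a phosphatase of glycogen, was at 11.3, 9.52 and 9.45 CPM in control and at 37.2, 42.6 and 40.4 CPM in Vhl libraries. It rose by 1.99 ± 0.11 on the log2 scale (edgeR, adjusted p = 4.16e-08). Ppp1r3e, another subunit that brings the phosphatase to glycogen, rose by 0.85 ± 0.13 (adjusted p = 0.000303). Phka2, the liver form of the kinase subunit, fell by 0.33 ± 0.09 (adjusted p = 0.0119), a call lost without control library C (adjusted p = 0.0506). The median log2 change of the list was 0.19, against -0.03 over all genes.

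In Vhl cells with AZD8330, 4 of the 18 rose and 2 fell, where 16% of all genes rose and 14% fell. Epm2a rose from a mean of 13.3 to 55.4 CPM (2.06 ± 0.11, edgeR adjusted p = 1.5e-08) and Ppp1r3d from 15.8 to 20.6 CPM (adjusted p = 0.0179). The Ppp1r3d call was lost without control library B (edgeR, adjusted p = 0.0596) or C (adjusted p = 0.106), or Vhl library A (adjusted p = 0.0824), B (adjusted p = 0.0583) or C (adjusted p = 0.0612). Phkb, the beta subunit of phosphorylase kinase, fell from 66.9 to 47.2 CPM (adjusted p = 0.00116) and Phka2 from 25.2 to 20.1 CPM (adjusted p = 0.0118). Ppp1r3e was at 5.34, 5.75 and 5.03 CPM in control and at 17.8, 21.2 and 21.8 CPM in Vhl libraries. It rose by 1.91 ± 0.14 (edgeR, adjusted p = 2.95e-07), and its Vhl effect was larger than with DMSO by 1.06 ± 0.19 (adjusted p = 0.00276). Ppp1r3e was the 1 gene of the wider list with such a difference, and like Gbe1 it rose with AZD8330 in Vhl cells (0.47 ± 0.13, adjusted p = 0.00763), while in control cells it fell by 0.59 ± 0.14 (adjusted p = 0.00232).

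AZD8330 raised 6 of the 18 genes and lowered 2 in control cells, where 29.1% of all genes rose and 31.7% fell. It raised 8 and lowered 1 in Vhl cells, where 25.8% of all genes rose and 25.6% fell. The 8 rises in Vhl cells became 4 without DMSO library B or AZD8330 library B, and 5 without AZD8330 library A or C. Epm2a rose in both, by 0.40 ± 0.12 in control cells (edgeR, adjusted p = 0.00936) and by 0.47 ± 0.10 in Vhl cells (adjusted p = 0.00147). Ppp1ca, a catalytic subunit of protein phosphatase 1, fell in both, by 0.27 ± 0.04 (adjusted p = 2.6e-05) and by 0.24 ± 0.04 (adjusted p = 0.000119). Ppp1ca overlaps Rad9a on the opposite strand, and 13.4% of its 31-base stretches also occur in another gene. None of its 18 values was a whole number, and the part of Rad9a in them was not tested. In the untreated cells, none of 17 genes of the list passed with edgeR, and 5 had an unadjusted p under 0.05. Over all 13569 genes tested there, 2 passed and 1267 had an unadjusted p under 0.05. Epm2a was there at 12.1, 16.1 and 12.8 CPM in control and at 19.5, 89.9 and 56.2 CPM in Vhl libraries, with Vhl A again the lowest. Without Vhl A, 2 genes of the list rose, Epm2a by 2.42 (edgeR, adjusted p = 0.00957) and Ppp1r3e by 2.46 (adjusted p = 0.00594). In that fit, 308 of 13560 genes rose. Without both A libraries 3 rose, with Epm2a at 2.33 (edgeR, adjusted p = 0.0332) and Ppp1r3e at 2.39 (adjusted p = 0.0173), where 395 of 13561 genes rose. The muscle forms Pygm and Ppp1r3a and the liver synthase Gys2 were among the 7 genes too low to test in both tables.

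**Figure D4:**
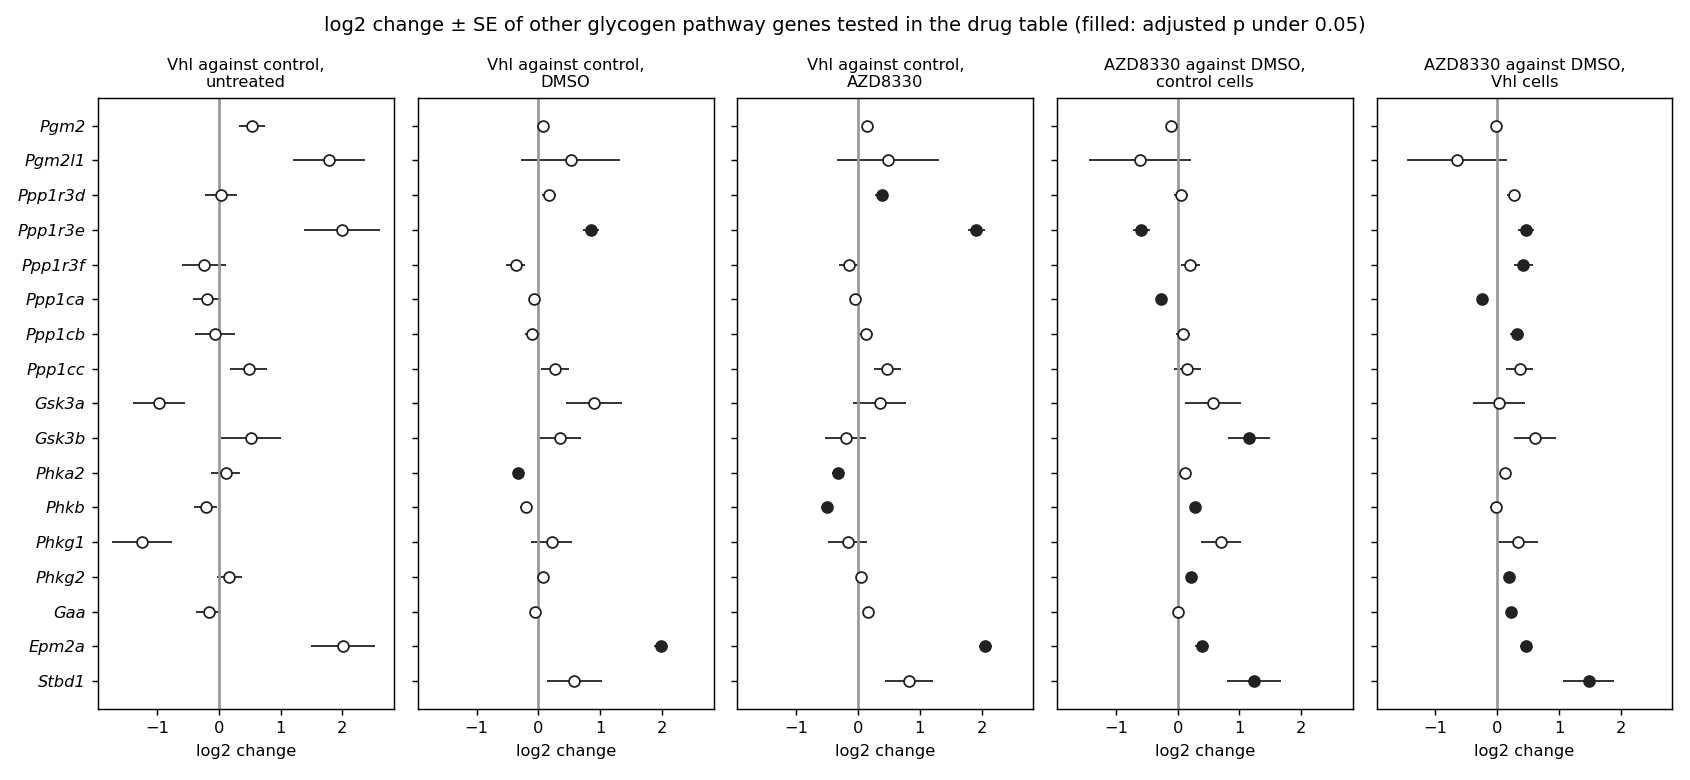
Log2 change of 17 of the 18 tested genes of the wider glycogen list (y axis) in each comparison between 2 groups (x axis, log2 change, bars for the SE). Stbd1 was not tested in untreated cells. Filled points passed at an adjusted p under 0.05. Epm2a lies at 1.99 with DMSO and 2.06 with AZD8330 in Vhl against control cells.

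Marker genes of OPCs and of other cell types moved with AZD8330 and with the Vhl edit as well. Of 8 astrocyte markers, 7 rose with AZD8330 in each genotype and none fell. Over all genes, 29.1% rose and 31.7% fell with AZD8330 in control cells, and 25.8% and 25.6% in Vhl cells. Their summed level went from between 1348 and 1378 CPM to between 2580 and 2684 CPM in control libraries, and from between 1629 and 1675 to between 2421 and 2503 CPM in Vhl libraries. Summed neuron markers went from between 166 and 175 to between 377 and 387 CPM in control libraries, and from between 361 and 371 to between 566 and 591 CPM in Vhl libraries. With DMSO, the summed neuron markers were thus higher in Vhl than in control libraries (2 of 5 tested rose, none fell), and so were the summed astrocyte markers (2 of 8 rose, 3 fell). The higher astrocyte sum rested on Aldoc, with means of 601 CPM in control and 848 in Vhl cells, and Slc1a2, with 443 and 591. Gja1 went the other way, from 229 to 133 CPM, as did S100b, from 52.4 to 42.1 CPM. Summed OPC markers were between 7870 and 8069 CPM in control and between 8632 and 8808 CPM in Vhl libraries with DMSO (4 of 6 rose, 1 fell). The largest parts of this sum were Olig1 and Ptprz1, with means of 3143 and 3133 CPM in control cells. Mean Sox10 was lower in Vhl cells, at 17.7 against 51.3 CPM with DMSO and at 31.1 against 97.5 CPM with AZD8330. Over all genes, 13.8% rose and 18.5% fell in Vhl against control cells with DMSO. With AZD8330, 3 of 5 neuron markers rose and 1 fell in Vhl against control cells. Of the others, 2 of 8 astrocyte markers rose and 4 fell, and 4 of 6 OPC markers rose and 1 fell. The shares over all genes there were 16% and 14%. All 8 astrocyte markers were above 1 CPM in every group, and none was at 0. The part of these markers in the changes of the glycogen genes with AZD8330 or with the Vhl edit was not tested.

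The genes whose levels were most like those of a member were found by the Pearson correlation of log2(CPM + 1) over the 6 untreated and, separately, the 12 drug libraries, ranked by the smaller of the 2 values among 12893 genes. For Gbe1 these were Trpm2 (r = 0.999 and 0.994) and Vegfa (r = 0.993 and 0.995). For Ppp1r3c they were Sox9 (r = 0.984 and 0.960) and Mnt (r = 0.963 and 0.958), and for Pygb they were Arhgef10l (r = 0.992 and 0.989) and Ank (r = 0.986 and 0.990). Ugp2 was most like Hsd17b10 (r = 0.941 and 0.910) and Gyg most like Rnaset2a (r = 0.902 and 0.913). The scarce Gys1 and Phka1 were most like Carmil3 (r = 0.931 and 0.936) and Trip12 (r = 0.945 and 0.933). These values describe libraries that share groups, and the genes were picked as the highest of many.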

How the data were processed

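RNA-seq of the 18 libraries was analysed from 2 deposited tables. Per the submitters' processing notes, Salmon 0.14.1 and the mouse build mm10 were used. The sources used here do not give how transcripts were combined into genes, the annotation, the library kit or its strandedness. The authors named the tables as TPM, but the deposited values are estimated counts (column totals differ between libraries), so the limma test planned for TPM was replaced by the quasi-likelihood test of edgeR 4.0.16 (R 4.3.3) on rounded counts, and limma 3.58.1 became an alternative. Of 54279 genes, those with a mean of at least 1 CPM were tested (13569 untreated, 13460 in the drug experiment). Libraries were scaled with TMM, the tables were fitted separately, the 4 drug groups shared a fit, and p-values were adjusted with Benjamini-Hochberg at 0.05. The SE is the log2 change divided by the square root of F, and 95% intervals use the residual degrees of freedom. The fits were checked on simulated data. Members were named whatever their result, and for each member the most alike genes were named by correlation. Wider-list genes that passed in the drug experiment could be named, and the text names some of them and counts the rest. A gene of the list that is counted is not reported here by name. The members and lists were chosen with earlier results of these data known. Alternatives were other scaling, DESeq2 1.42.0, no filter, limma with pseudocounts of 1 and 0.1, a replicate block, fits of 2 groups and leaving out libraries. Positions are from GENCODE M21 (GRCm38), 1-based, and upstream sequences from RefSeq (GRCm38.p6). Columns of group means by the authors entered no comparison.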

Additional observations from a re-analysis of the deposited data

Results flagged for a closer look

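The Vhl effect on Gbe1 differed between AZD8330 and DMSO by 0.75 on the log2 scale, tested as the difference of the 2 effects in a single model. It remained past the threshold under every alternative run. The Vhl effect on Pygb differed between AZD8330 and DMSO by -0.15 on the log2 scale by the same test, and this call was lost under 8 of 18 alternatives.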

How the results depend on the processing

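Of 579 log2 changes of members recomputed under alternatives, 530 kept their direction and side of the threshold, 30 lost the call, 19 gained it and 0 of the called values reversed. For the wider list these numbers were 1408, 49, 15 and 0 of 1472. The number of glycogen genes called in untreated cells, 0 in the report, was 2 with DESeq2, 2 without the low-count filter (Gbe1 and Pygb in both), between 0 and 2 with 1 library left out, and 4 without both A libraries, an alternative chosen after seeing the data. Calls over all genes grew as well. The 2 rises and 0 falls became 246 and 109 with DESeq2, and 112 and 31 of 28714 genes without the filter. They became 308 and 131 without Vhl library A, and 395 and 211 without both A libraries. The number of glycogen genes with a different Vhl effect under AZD8330, 2 in the report, was between 1 and 2 with 1 library left out and 1 with the letters as a replicate block, where Pygb was lost (edgeR, adjusted p = 0.0691). In the other 4 comparisons no count of the tested members moved by more than 1.5 times. That limit lets a small count lose a call, so it is no sign that single calls were stable. Of 13 alternatives, 8 lost the fall of Phka1 in Vhl cells with DMSO and 4 lost the rise of Gys1 in Vhl cells with AZD8330. For AZD8330 against DMSO in Vhl cells, 7 lost the rise of Gyg and 5 gained a call of Phka1. For the wider list, the 8 rises with AZD8330 in Vhl cells became 4 when only the 2 groups were fitted, 5 with the replicate block and between 4 and 7 with 1 library left out, and its 0 calls in untreated cells became 2 with DESeq2. Deviations of same-letter libraries correlated between -0.081 and 0.053. Such low values cannot exclude that libraries of a letter shared a culture or a day, so whether the letters pair them was not settled. In untreated cells, Sox10 was higher in library A of both genotypes. It was at 526.9 CPM in control A against 88.1 and 87.8, and at 327.1 CPM in Vhl A against 15.3 and 16.0. Pdgfra was the highest in control A but the lowest in Vhl A of their groups. Scaling by total counts turned 1851 rises and 2492 falls of all genes with DMSO into 2347 and 1788, and 1051 upward and 667 downward differences of the Vhl effect into 681 and 873. Low counts limit Gys1, Pygl and Phka1.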

Other observations

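The untreated table also holds 2 columns of group values made by the authors. The control column equals the mean of the 3 control libraries within 3.33e-05 estimated counts, whereas the Vhl column does not equal the mean of the 3 Vhl libraries. For Gbe1 it holds 529 estimated counts, where the libraries hold 903, 3836 and 3781. Among 11461 genes with a mean over 50 estimated counts in the Vhl libraries, the column was below the lowest library for 1677 and above the highest for 824. Neither column was used for any comparison.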
